A study of Mus musculus with 8 samples.

Results

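The mitosis genes described here are 39 protein-coding genes of G2 and M phase, from cyclins and kinases to kinetochore, spindle and cytokinesis proteins. They were chosen by name, and each name matched 1 row among the 22053 rows of the deposited expression table. The wild-type mice were 10 days old, and of the 8 RNA-seq libraries 4 came from spine (primary vertebral cells, candidate vertebral skeletal stem cells, vSSC) and 4 from femur and tibia (primary long bone cells, long bone skeletal stem cells, lbSSC). In each site replicates 1 and 2 were male and replicates 3 and 4 female. Cells of both sites went through the same sort, which kept CD200+ cells and removed those with CD105, 6C3, Thy, CD45, TER119 or CD31. The titles call the libraries biological replicates, but the number of animals behind each library is not stated in the labels. The spread behind each p-value is that between libraries, and how far it holds the spread between animals is not known. Expression was given in FPKM, that is, fragments relative to transcript length and to all mapped fragments. Each difference is given ± SE in log2(FPKM + 1), with lbSSC subtracted from vSSC, and on this scale low genes show less change than they had. A level in FPKM with ± is the mean ± SD of the 4 libraries of a site. Adjusted p-values come from limma with Benjamini-Hochberg adjustment over all 10729 genes that reached an FPKM of 1 in at least 4 libraries, and genes were called at an adjusted p under 0.05.

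A cell enters mitosis when Cdk1, bound to cyclin A or cyclin B, is switched on, and Polo-like and Aurora kinases then drive spindle assembly. Kinetochores tie the chromosomes to spindle microtubules, the spindle checkpoint delays anaphase until all are tied, and the anaphase-promoting complex (APC/C) with Cdc20 then marks cyclin B for destruction. Transcripts of these genes are low in resting cells and accumulate in G2 and mitosis, which is why they serve as markers of dividing cells. In the growing skeleton, dividing cells include the columnar chondrocytes of the growth plate.

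Facts of the libraries as a whole bear on all results below. Summed over all rows, FPKM lay between 517314 and 571869 in the vSSC libraries and between 460302 and 521489 in the lbSSC libraries, and the ribosomal protein genes took 21.4, 19.7, 21.6 and 18.5% of this sum in vSSC replicates 1 to 4 and 18.6, 18.1, 15.9 and 15.8% in lbSSC replicates 1 to 4. Read totals were not used here, so no counting interval is given. Chondrocyte RNA was abundant at both sites, with Col2a1, the main cartilage collagen, at 7443, 13426, 7528 and 15067 FPKM in vSSC and 11146, 10803, 14634 and 20002 FPKM in lbSSC. The sorted-out types were not all absent from the RNA. Of 7 endothelial markers all stayed under 1 FPKM in each library, while Ptprc, which encodes CD45, was at 0.347, 0.949, 0.474 and 0.331 FPKM in vSSC and 0.0270, 0.0401, 0.0688 and 0.0250 FPKM in lbSSC. Ptprc was low at both sites, and every vSSC library lay above every lbSSC library. Erythroid RNA remained, with the haemoglobin gene Hbb-bs at 3229.6, 2854, 2573 and 2436 FPKM in vSSC and 5482, 5343, 2546 and 2756 FPKM in lbSSC.

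Most mitosis genes were expressed at a higher level in the vertebral cells. Of the 39 genes 35 passed the filter on low values, and of these 25 rose in vSSC, none fell and 10 did not pass the test, where 14.3% of all genes tested rose and 9.17% fell. The largest differences were those of the survivin gene Birc5 (1.32 ± 0.19, adjusted p = 0.000773) and the kinetochore gene Nuf2 (1.29 ± 0.13, adjusted p = 7.08e-05), which correspond to 2.58-fold and 2.87-fold higher mean FPKM. The fitted difference lay above 0 in all 35 genes, with a median of 0.74, against 0.08 over all genes tested, of which 58.6% lay above 0. In 27 of the 35 every vSSC library lay above every lbSSC library, and in none below, where the shares over all genes tested were 15.8% and 9.99%. These genes share a biological process and are not independent of each other. In 5 of the 35 (Bub1, Ttk, Ndc80, Kif2c and Hmmr) an lbSSC library was under 1 FPKM, so they met the filter in part through vSSC. With no filter 39 genes were tested, of which 23 rose and none fell, where 7% of all genes rose. In that fit the difference lay above 0 in 35 of the 39. Mki67, Cenpf, Kif4 and Cenpe, which did not pass the filter, had lower mean FPKM in vSSC, with overlapping sites. Their means in vSSC and lbSSC were 0.122 against 0.246, 0.236 against 0.363, 0.295 against 0.443 and 0.110 against 0.118 FPKM. The count of genes that rose was 19 without lbSSC replicate 4, where 7.82% of all genes rose. In fits added after seeing the data it was 13 with vSSC replicates 1 and 3 both left out (4.69% of all genes). It was 3 beside the ribosomal protein share of each library (2.15% of all genes). In bulk RNA a larger share of dividing cells and more of this RNA per dividing cell cannot be told apart.

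**Figure D1:**
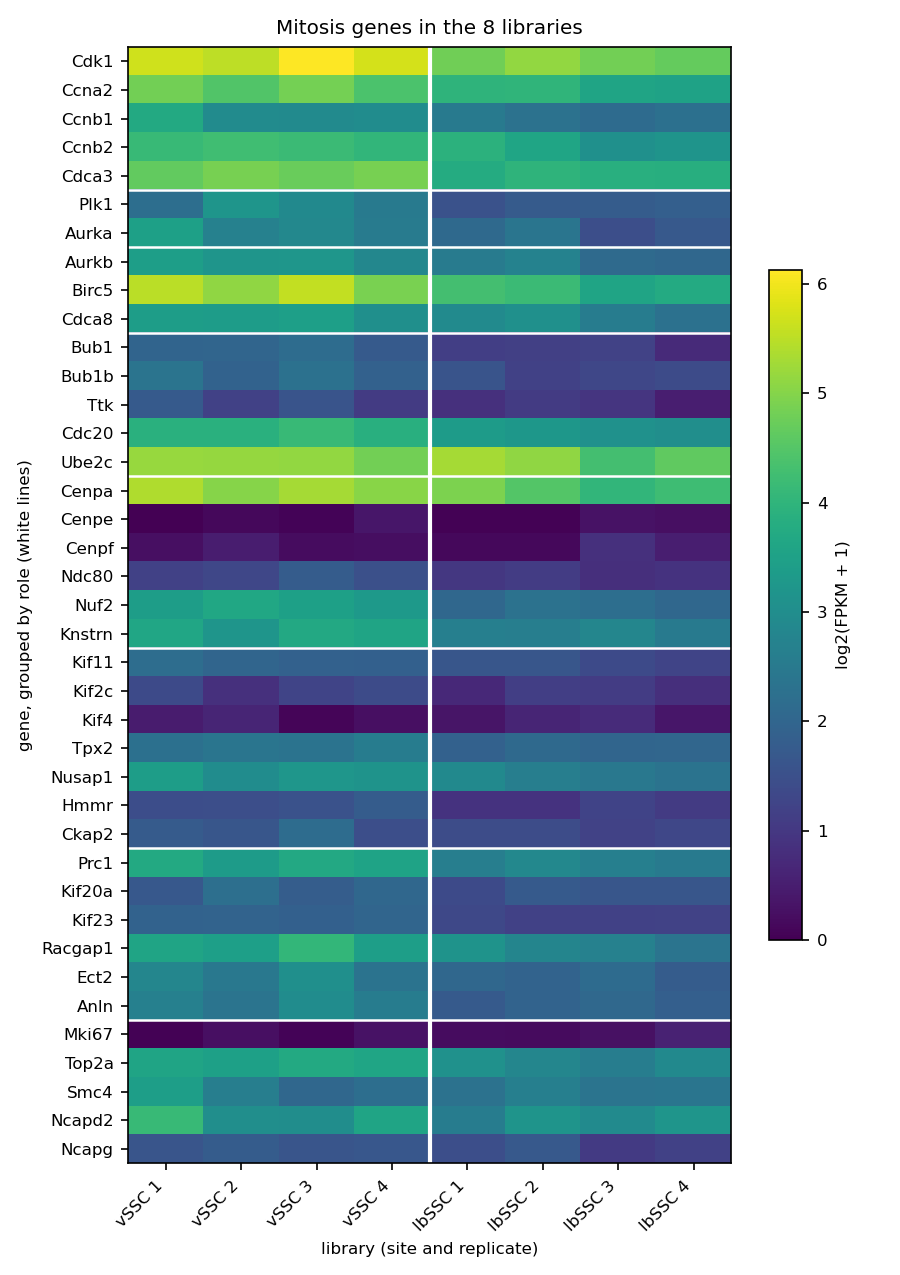
Colour gives log2(FPKM + 1) of each mitosis gene (rows, grouped by role between white lines) in each library (columns, the 4 vSSC libraries left of the vertical white line). Most rows are brighter on the left, and Cenpe, Cenpf, Kif4 and Mki67 are dark in all 8 libraries.

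Promoters of genes transcribed in G2 and M are known for the cell cycle genes homology region (CHR), which is bound by the MuvB complexes and is spelled TTTGAA or, less often, TTTAAA, and for CCAAT boxes bound by NF-Y. RefSeq promoters on GRCm38.p6, from 250 bases before to 50 after the annotated start, were matched by symbol for 34 of the 39 genes, with 36 promoters since Prc1 and Ect2 have a pair each. Ccna2, Aurkb, Tpx2, Kif20a and Smc4 were not matched. On either strand TTTGAA was found in 29 of the 36 promoters (80.6%), against 17.9% of all 32851 promoters and 11.7% of the promoters of genes tested. Between 50 bases before and 50 after the start it was found in 25 (69.4%), against 4.94% of all promoters. CCAAT was found in 29 (80.6%) against 37.4%, and both in 26 (72.2%) against 6.95%. TTTAAA was found in 9 (25.0%) against 13.2%, and the E2F-type sequence TTTNNCGC in 5 (13.9%) against 5.17%. A match is a description of these letters and does not show that a factor binds there.

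Promoters are printed for the 3 genes with the largest called differences among those that hold both TTTGAA and CCAAT, and for Ube2c, the gene with the smallest difference among those matched, so that called and uncalled genes can be compared. They read 5′ to 3′ on the gene's strand, with every match to the 4 searched motifs in capitals (TTCAAA and ATTGG are TTTGAA and CCAAT on the other strand), and positions count from 1 at the start, with negative numbers before it. The Aurora A kinase gene Aurka (chr2:172370521-172370820, minus strand) has CCAAT at -51 and -19, TTTAAA at 18 and TTTGAA at 33.
Aurka: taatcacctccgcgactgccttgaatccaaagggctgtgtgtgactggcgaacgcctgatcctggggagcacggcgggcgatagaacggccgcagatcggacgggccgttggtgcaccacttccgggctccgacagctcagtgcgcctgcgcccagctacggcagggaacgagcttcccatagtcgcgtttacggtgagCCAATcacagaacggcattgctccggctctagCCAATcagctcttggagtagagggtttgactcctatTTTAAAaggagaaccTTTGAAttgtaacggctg
The Polo-like kinase gene Plk1 (chr7:122159185-122159484, plus strand) has TTTAAA at -89 and -29, CCAAT at -14 and TTTGAA at 31.
Plk1: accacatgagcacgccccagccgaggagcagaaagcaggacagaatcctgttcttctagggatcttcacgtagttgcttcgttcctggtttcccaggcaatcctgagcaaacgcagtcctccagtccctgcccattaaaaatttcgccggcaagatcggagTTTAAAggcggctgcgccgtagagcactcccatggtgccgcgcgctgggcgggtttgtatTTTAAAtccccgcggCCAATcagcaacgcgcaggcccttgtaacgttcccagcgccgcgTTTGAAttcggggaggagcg
Prc1, which bundles microtubules of the anaphase spindle, is shown at the first of its starts (chr7:80294201-80294500, plus strand) and has CCAAT at -37 and TTTGAA at -5.
Prc1: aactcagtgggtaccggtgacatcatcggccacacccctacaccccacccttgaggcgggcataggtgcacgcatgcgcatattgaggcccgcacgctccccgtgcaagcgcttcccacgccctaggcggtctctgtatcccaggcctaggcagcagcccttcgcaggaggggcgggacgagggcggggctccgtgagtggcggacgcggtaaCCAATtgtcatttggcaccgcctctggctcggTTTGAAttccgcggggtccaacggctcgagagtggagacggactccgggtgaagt
Ube2c, the ubiquitin-conjugating enzyme of the APC/C (chr2:164769679-164769978, plus strand), has 6 CCAAT matches, 3 on each strand, and TTTGAA on the minus strand at -29.
Ube2c: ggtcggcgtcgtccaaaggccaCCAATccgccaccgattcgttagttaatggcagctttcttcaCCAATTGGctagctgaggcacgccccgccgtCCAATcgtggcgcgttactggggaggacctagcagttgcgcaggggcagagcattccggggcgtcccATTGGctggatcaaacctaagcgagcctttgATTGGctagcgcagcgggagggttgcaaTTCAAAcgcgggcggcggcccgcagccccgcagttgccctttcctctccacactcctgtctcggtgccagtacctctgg
Promoters of called and uncalled genes both held the motifs. TTTGAA was held by 19 of 25 promoters of called genes and by 7 of 7 promoters of genes tested and not called, and CCAAT by 20 and 5. The promoters of Nuf2, Knstrn and Nusap1, all called, held none of the 4 motifs in this window, and that of Birc5 held TTTAAA alone.

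**Figure D2:**
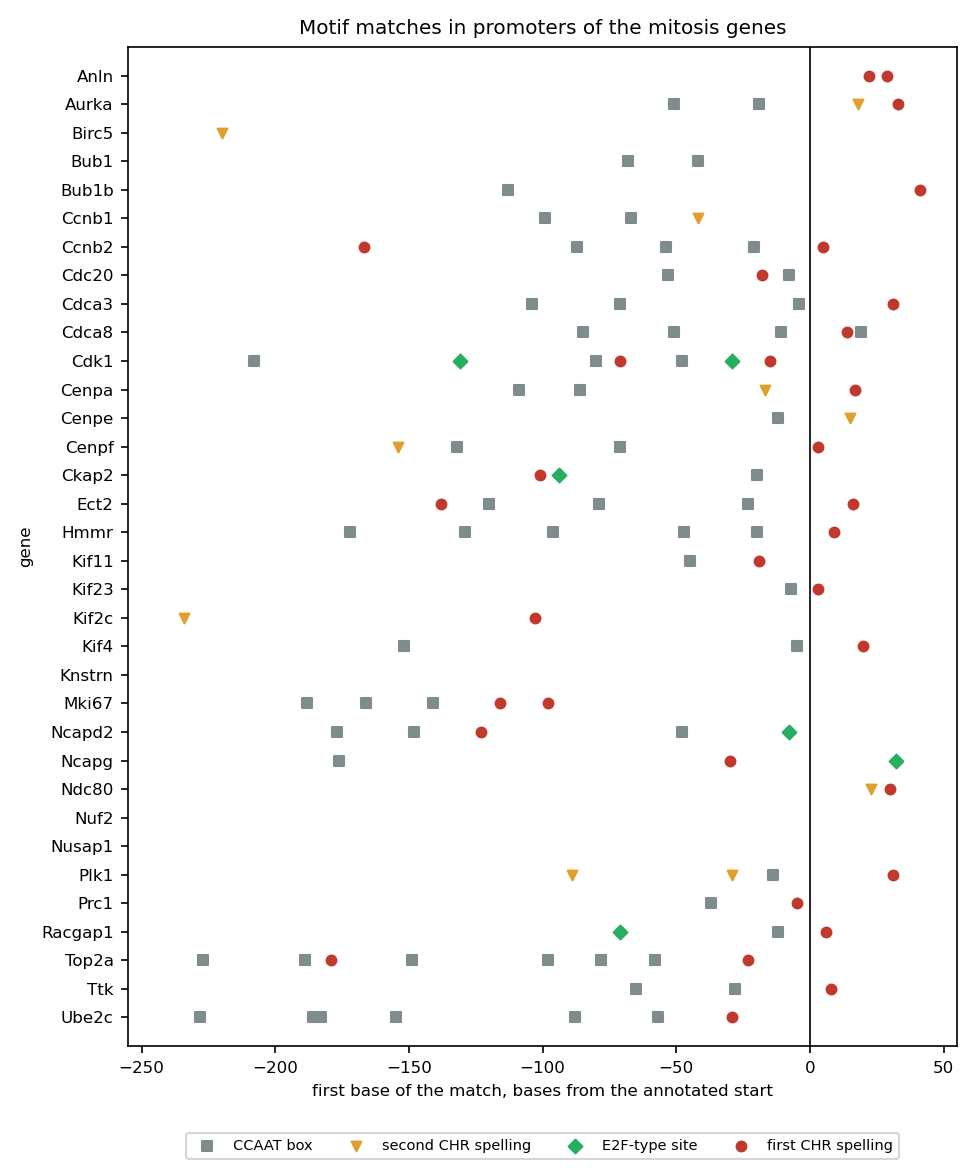
Each mark is a motif match in the promoter of a mitosis gene (rows), placed by the distance in bases of its first base from the annotated start. TTTGAA (first CHR spelling) lies mostly within 50 bases of the start and CCAAT boxes mostly before it, while Nuf2, Knstrn and Nusap1 have no mark.

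Genes of mitotic entry rose together, 5 of 5. Cdk1, the kinase that drives entry, had the highest mean level of the 39 genes and was at 50.7, 44.5, 68.8 and 52.1 FPKM in vSSC replicates 1 to 4 and 26.8, 33.9, 27.3 and 24.7 FPKM in lbSSC replicates 1 to 4 (0.91 ± 0.15, adjusted p = 0.00125). Every vSSC library lay above every lbSSC library, and vSSC replicate 3 was the highest. Cdca3, an F-box protein that takes part in the destruction of the mitotic inhibitor Wee1, was at 24.0, 28.3, 25.3 and 28.0 FPKM in vSSC and 12.7, 14.9, 13.5 and 13.2 FPKM in lbSSC (0.91 ± 0.11, adjusted p = 0.000170). Its libraries were close to each other within each site, and the sites did not overlap. Ccna2, the cyclin A of S phase and G2, differed by 0.85 ± 0.16 (adjusted p = 0.00336), and Ccnb1, the main mitotic cyclin, by 0.83 ± 0.19 (adjusted p = 0.0101). Ccnb2, the other B-type cyclin, had the smallest difference of the group, with 16.6, 18.1, 17.0 and 15.4 FPKM in vSSC and 14.3, 11.1, 7.48 and 7.94 FPKM in lbSSC (0.71 ± 0.18, adjusted p = 0.0162). The sites of Ccnb2 did not overlap, with lbSSC replicate 1 just under the lowest vSSC library and lbSSC replicates 3 and 4 lowest. Leaving out lbSSC replicate 3 ended its call (0.59, adjusted p = 0.0509), as did leaving out lbSSC replicate 4 (0.61, adjusted p = 0.0504).

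Both kinases of spindle assembly and centrosome maturation rose. Plk1, the Polo-like kinase, was at 3.60, 8.18, 6.47 and 4.72 FPKM in vSSC and 1.91, 2.38, 2.45 and 2.61 FPKM in lbSSC (0.97 ± 0.20, adjusted p = 0.00659). Aurka, the Aurora A kinase of the centrosome, was at 10.1, 5.41, 6.21 and 4.89 FPKM in vSSC and 3.26, 4.16, 1.78 and 2.26 FPKM in lbSSC (0.98 ± 0.24, adjusted p = 0.0130). The sites did not overlap for either gene, but the vSSC library that was highest differed, replicate 2 for Plk1 and replicate 1 for Aurka. Tpx2, which activates Aurora A on spindle microtubules, did not pass the test (0.38 ± 0.13, adjusted p = 0.0598), although its sites did not overlap, with 3.83, 4.20, 4.02 and 4.95 FPKM in vSSC and 2.76, 3.28, 3.03 and 3.07 FPKM in lbSSC. It was called with quantile normalization (adjusted p = 0.0384), with no variance trend (0.0404), with library weights (0.0458) and with the length trend removed (0.0350).

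The chromosomal passenger complex, which corrects faulty attachments and later acts at the cleavage furrow, has 3 subunits among the 39 genes, and all 3 rose. Its scaffold Incenp, not among the 39 and named after its values were seen, was at 1.61 ± 0.368 against 1.13 ± 0.215 FPKM and did not pass (0.28 ± 0.16, adjusted p = 0.226). Birc5, its survivin subunit (chr11:117849251-117855743, ENSMUSG00000017716, GRCm38), was at 44.2, 33.5, 46.5 and 28.5 FPKM in vSSC and 18.7, 17.2, 10.9 and 12.4 FPKM in lbSSC. The lowest vSSC library lay above the highest lbSSC library, although the libraries of each site were spread widely. Aurkb, the Aurora B kinase, was at 9.84, 8.15, 8.37 and 6.08 FPKM in vSSC and 4.83, 5.58, 3.31 and 3.13 FPKM in lbSSC (0.82 ± 0.19, adjusted p = 0.0105). Cdca8, which encodes borealin, was at 9.62, 9.39, 10.0 and 7.33 FPKM in vSSC and 6.62, 7.40, 4.90 and 3.89 FPKM in lbSSC (0.61 ± 0.18, adjusted p = 0.0309). It was the 1 called gene whose sites overlapped, since lbSSC replicate 2 lay just above vSSC replicate 4. Its call was lost with no filter (adjusted p = 0.0665) and when vSSC replicate 1, 2 or 3 or lbSSC replicate 3 or 4 was left out, with adjusted p from 0.0658 to 0.0859.

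In the spindle checkpoint and APC/C group 3 of 5 rose. Bub1, a checkpoint kinase of the kinetochore, was at 2.95, 2.98, 3.48 and 2.32 FPKM in vSSC and 1.21, 1.22, 1.29 and 0.657 FPKM in lbSSC (0.91 ± 0.17, adjusted p = 0.00286). Cdc20, the activator of the APC/C that the checkpoint holds back, was at 13.7, 13.9, 16.6 and 13.5 FPKM in vSSC and 9.34, 8.43, 7.51 and 7.18 FPKM in lbSSC (0.76 ± 0.13, adjusted p = 0.00154). Neither gene's sites overlapped. Bub1b, which encodes the checkpoint protein BubR1, also rose (0.75 ± 0.17, adjusted p = 0.00880), while the checkpoint kinase Ttk, low at 1.69 ± 0.596 against 0.814 ± 0.285 FPKM, did not pass (0.55 ± 0.20, adjusted p = 0.0626). Ttk was called with quantile normalization (adjusted p = 0.0319) and when vSSC replicate 4 was left out (0.0352). Ube2c had the smallest difference of the group, with 35.5, 34.6, 33.9 and 27.2 FPKM in vSSC and 38.5, 33.3, 18.8 and 23.7 FPKM in lbSSC (0.24 ± 0.20, adjusted p = 0.395). The highest of all 8 libraries for Ube2c was lbSSC replicate 1, the sole mitosis gene tested for which that was so, and the female lbSSC libraries were the lowest. Ube2c overlaps Tnnc2 on the opposite strand over 592 exonic bases, and the libraries do not mark the strand, so reads within these bases cannot be assigned to either gene.

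At the centromere and kinetochore 3 of the 4 genes tested rose, and Cenpe and Cenpf did not reach the filter. Nuf2, a subunit of the NDC80 complex that grips microtubules (chr1:169497934-169531464, ENSMUSG00000026683, GRCm38), was at 9.61, 11.6, 10.1 and 8.73 FPKM in vSSC and 3.14, 3.98, 3.67 and 3.14 FPKM in lbSSC. Its vSSC libraries lay far above all lbSSC libraries. Knstrn, a kinetochore and spindle adaptor, was at 11.3, 8.12, 12.0 and 10.9 FPKM in vSSC and 5.26, 5.18, 6.01 and 4.66 FPKM in lbSSC (0.88 ± 0.14, adjusted p = 0.00147). Cenpa, the histone variant that marks centromeres, differed by 0.77 ± 0.18 (adjusted p = 0.0108). Ndc80, the partner of Nuf2 in the same complex, was at 1.26, 1.47, 2.45 and 1.83 FPKM in vSSC and 1.00, 1.12, 0.766 and 0.876 FPKM in lbSSC (0.49 ± 0.17, adjusted p = 0.0581). The sites of Ndc80 did not overlap, but its level was low and it did not pass the test. It was called with quantile normalization (adjusted p = 0.0224), with no variance trend (0.0389) and when vSSC replicate 1 was left out (0.0444). Another subunit of the complex, Spc25, which is not among the 39, rose by 1.11 ± 0.19 (adjusted p = 0.00174).

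Of the spindle motors and microtubule binders 3 of the 6 tested rose, with a median difference of 0.47. Nusap1, which bundles spindle microtubules, was at 9.70, 6.88, 8.37 and 7.88 FPKM in vSSC and 6.48, 5.14, 4.44 and 4.05 FPKM in lbSSC (0.62 ± 0.16, adjusted p = 0.0166). Hmmr, a hyaluronan-binding spindle protein, was at 1.73, 1.76, 1.93 and 2.46 FPKM in vSSC and 0.859, 0.862, 1.36 and 1.07 FPKM in lbSSC (0.54 ± 0.16, adjusted p = 0.0283). The sites did not overlap for either gene, but each call was lost when any 1 of several libraries was left out. That of Nusap1 was lost without lbSSC replicate 3 (adjusted p = 0.0529) or 4 (adjusted p = 0.0528). That of Hmmr was lost without vSSC replicate 3 or 4 or lbSSC replicate 1, 2 or 4 (adjusted p from 0.0545 to 0.0652), and also under median-of-ratios scaling, where adjusted p was 0.0506, or with each library rescaled to one sum, where it was 0.0712. Kif11, the motor that pushes spindle poles apart, rose by 0.51 ± 0.16 (adjusted p = 0.0351), a call lost without vSSC replicate 1, 2 or 3 or lbSSC replicate 3 or 4 (adjusted p from 0.0531 to 0.104), with no filter (adjusted p = 0.0520) or with libraries rescaled to one sum (0.0640). The depolymerase Kif2c was at 1.59, 0.805, 1.39 and 1.64 FPKM in vSSC and 0.620, 1.19, 1.14 and 0.765 FPKM in lbSSC (0.29 ± 0.18, adjusted p = 0.270), with overlapping sites. Ckap2, a spindle microtubule protein, did not pass (0.42 ± 0.17, adjusted p = 0.0988), and the chromokinesin Kif4 did not reach the filter.

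Genes of the spindle midzone and cytokinesis rose, 5 of 6. Prc1 was at 12.2, 9.35, 12.0 and 10.6 FPKM in vSSC and 5.19, 6.23, 5.28 and 4.70 FPKM in lbSSC (0.92 ± 0.13, adjusted p = 0.000640). Racgap1, which with the motor Kif23 forms the centralspindlin complex, was at 10.9, 9.96, 15.7 and 9.89 FPKM in vSSC and 7.92, 5.94, 5.46 and 4.15 FPKM in lbSSC (0.88 ± 0.19, adjusted p = 0.00765). In both genes the sites did not overlap, and for Racgap1 vSSC replicate 3 stood well above the others. Kif23 itself rose by 0.71 ± 0.13 (adjusted p = 0.00372), the furrow regulator Ect2 by 0.68 ± 0.18 (adjusted p = 0.0183, and 0.0587 without lbSSC replicate 4) and Anln, the actin-binding anillin of the contractile ring, by 0.75 ± 0.16 (adjusted p = 0.00735). Kif20a, a midzone motor, was at 2.22, 3.69, 2.49 and 3.13 FPKM in vSSC and 1.59, 2.31, 2.14 and 2.12 FPKM in lbSSC and did not pass (0.34 ± 0.16, adjusted p = 0.147). Besides Ube2c, exonic bases were shared with a gene on the opposite strand by Prc1 (Rccd1), Kif20a (Cdc23), Ncapg (Lcorl), Kif4 (Pdzd11), Ccna2 (Exosc9), Cdc20 (Elovl1), Nusap1 (Oip5), Cdca8, Plk1 and Knstrn, and reads there have the same limit.

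Chromosome structure genes had the lowest median of the role groups, 0.39, and Top2a was the sole one of 4 tested that rose. Top2a, the topoisomerase that untangles sister chromatids, was at 10.996, 10.1, 12.2 and 11.1 FPKM in vSSC and 7.49, 6.04, 5.02 and 6.49 FPKM in lbSSC (0.74 ± 0.14, adjusted p = 0.00282), with no overlap of the sites. The exons of Top2a overlap the small RNA gene Gm23451 on the same strand over 122 bases. The condensin subunits did not pass. Ncapd2 was at 16.3, 7.16, 7.04 and 10.96 FPKM in vSSC and 4.98, 7.97, 6.62 and 8.20 FPKM in lbSSC (0.46 ± 0.24, adjusted p = 0.177), and its exons overlap those of the small RNA gene Scarna10 on the same strand. Smc4 was at 9.71, 5.12, 3.11 and 3.63 FPKM in vSSC and 3.97, 5.30, 4.15 and 4.19 FPKM in lbSSC (0.15 ± 0.26, adjusted p = 0.706). For both genes vSSC replicate 1 was the highest library. In Ncapd2 vSSC replicates 2 and 3 lay among the lbSSC libraries, and in Smc4 vSSC replicates 3 and 4 lay under all of them. Without vSSC replicate 1 the difference of Smc4 was -0.14 (adjusted p = 0.611). Ncapg differed by 0.31 ± 0.17 (adjusted p = 0.205).

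**Figure D3:**
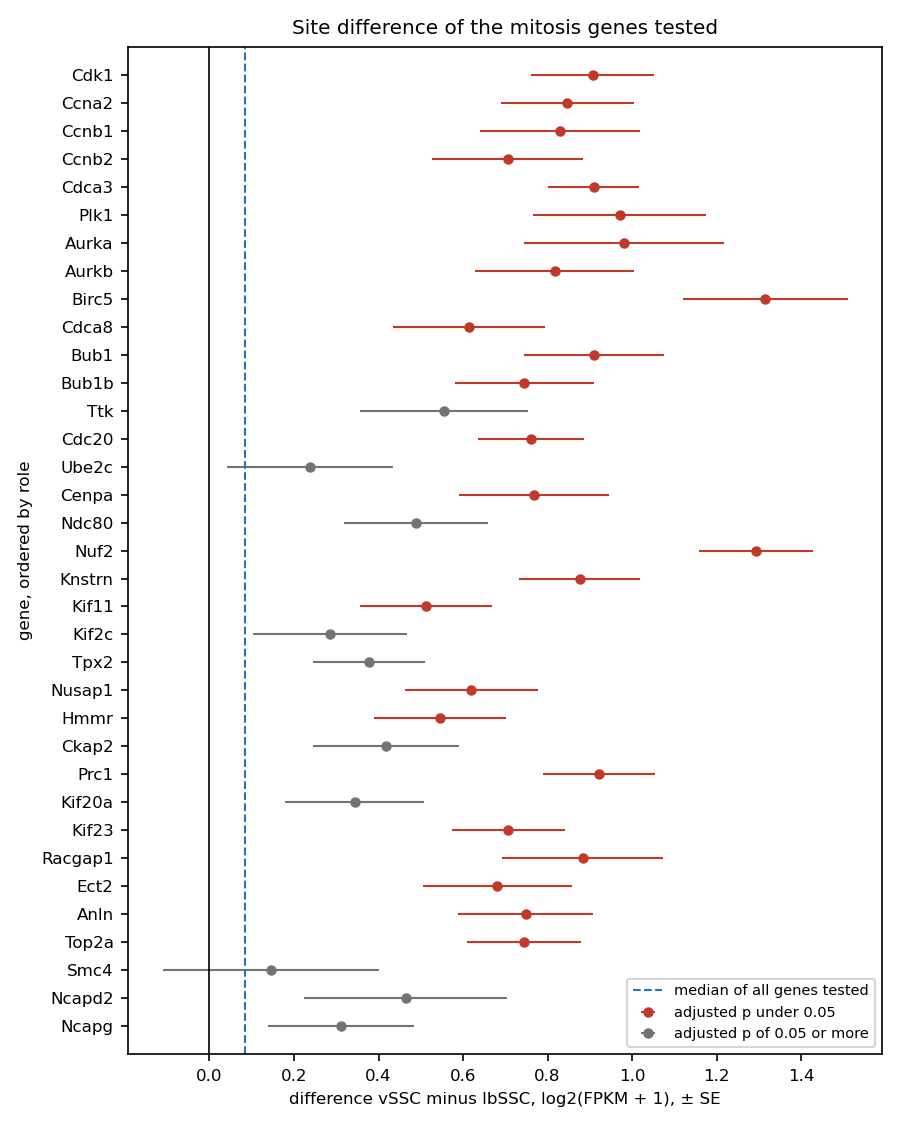
Points give the vSSC minus lbSSC difference in log2(FPKM + 1) for the 35 mitosis genes tested, with bars of 1 SE, in red where the adjusted p was under 0.05. All points lie right of 0, with Birc5 at 1.32 and Nuf2 at 1.29 farthest right and Smc4 at 0.15 nearest to 0, and the dashed line marks the median of all genes tested at 0.08.

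Mki67, the gene of the Ki-67 antigen by which dividing cells are commonly stained, was low in these data. It was at 0.0213, 0.197, 0.0416 and 0.227 FPKM in vSSC and 0.156, 0.137, 0.203 and 0.490 FPKM in lbSSC, under 0.5 FPKM in every library, while the means over the 8 libraries were 41.1 FPKM for Cdk1 and 26.5 FPKM for Birc5. Cenpf, a kinetochore protein, and Cenpe, a kinetochore motor, were at means of 0.2996 and 0.114 FPKM, and Kif4 at 0.369 FPKM, also with overlapping sites. The longest protein-coding transcripts of these genes in GENCODE M21 were 10061 bases (Mki67), 11130 (Cenpf), 7910 (Cenpe) and 4983 (Kif4), against a median of 3052 for the 35 that passed. All 3 mitosis genes with a transcript of at least 6000 bases failed the filter, and 35 of the 36 shorter ones passed. Of all rows with a length from 6000 to under 8000 bases 62.2% passed the filter, and of those of at least 8000 bases 49.7%. The part of transcript length in the low values was not tested. Across the 39 genes, Spearman's rho of mean FPKM against transcript length was -0.42. It was 0.17 across all 21520 rows with a length and -0.32 across the 10689 of them that passed the filter. These are descriptions over genes that share libraries.

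**Figure D4:**
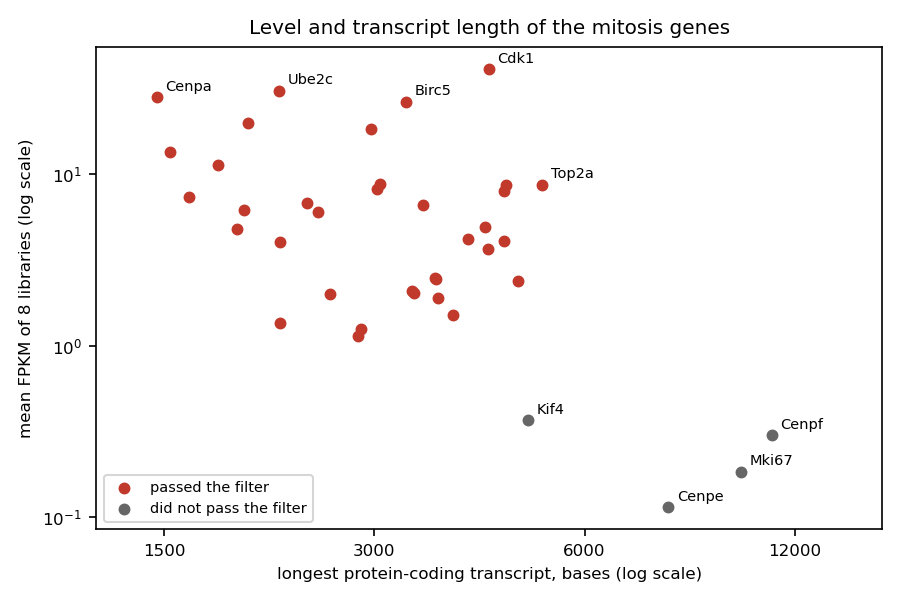
Each point is a mitosis gene, placed by its longest protein-coding transcript in bases and its mean FPKM over the 8 libraries, both on log scales. Mki67, Cenpf and Cenpe, with the longest transcripts, lie with Kif4 under 0.4 FPKM, while Cdk1 at 4375 bases had the highest mean.

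Under 4 other library scalings the differences were smaller in the median and kept their direction. The median over the 35 genes was 0.65 with median-of-ratios size factors, 0.70 with quantile normalization, 0.66 with trimmed-mean factors and 0.61 with libraries rescaled to one sum, and all 35 lay above 0 under each. The number that rose was 24, 28, 25 and 23 in the same order, and none fell, while the share of all genes that rose was 11.3%, 10.2%, 11.6% and 9.34%. Over all genes tested the site difference varied with transcript length, with a median of 0.27 under 2000 bases, 0.10 from 2000 to under 4000 and -0.02 from 4000 to under 6000. In the same length classes the mitosis genes had medians of 0.77 (n = 7), 0.71 (n = 19) and 0.68 (n = 9). With the length trend removed in each library, an alternative chosen after the data were seen, 26 rose and none fell (median 0.68). In that fit 13% of all genes rose.

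The level of the mitosis genes moved with the ribosomal protein share from library to library. Their mean log2(FPKM + 1), over the 35 tested, was 3.18, 3.00, 3.16 and 2.97 in vSSC replicates 1 to 4 and 2.47, 2.51, 2.30 and 2.25 in lbSSC replicates 1 to 4. Within vSSC replicates 1 and 3 were high in both measures and within lbSSC replicates 3 and 4 were low in both. Of the 35 genes 13 were highest in vSSC replicate 3 and 11 in vSSC replicate 1, and 14 were lowest in lbSSC replicate 4 and 10 in lbSSC replicate 3. Where the sites had nearly the same share, in vSSC replicate 4 (18.5%) and lbSSC replicate 1 (18.6%), 33 of the 35 genes were higher in the vSSC library, with a median difference of 0.49, against 51.0% of all genes and a median of 0.01. Ube2c and Smc4 were the exceptions. This pair was picked after its values were seen, and its libraries differ in sex (vSSC replicate 4 female, lbSSC replicate 1 male). Further fits were added after seeing the data. In these 13 genes rose without both vSSC replicates 1 and 3 (median 0.61), where 4.69% of all genes rose. Beside the ribosomal protein share as a further term 3 rose (Cdca3, Birc5 and Nuf2, median 0.45), where 2.15% of all genes rose. The share differs between the sites, so that fit can take up part of the site difference itself.

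**Figure D5:**
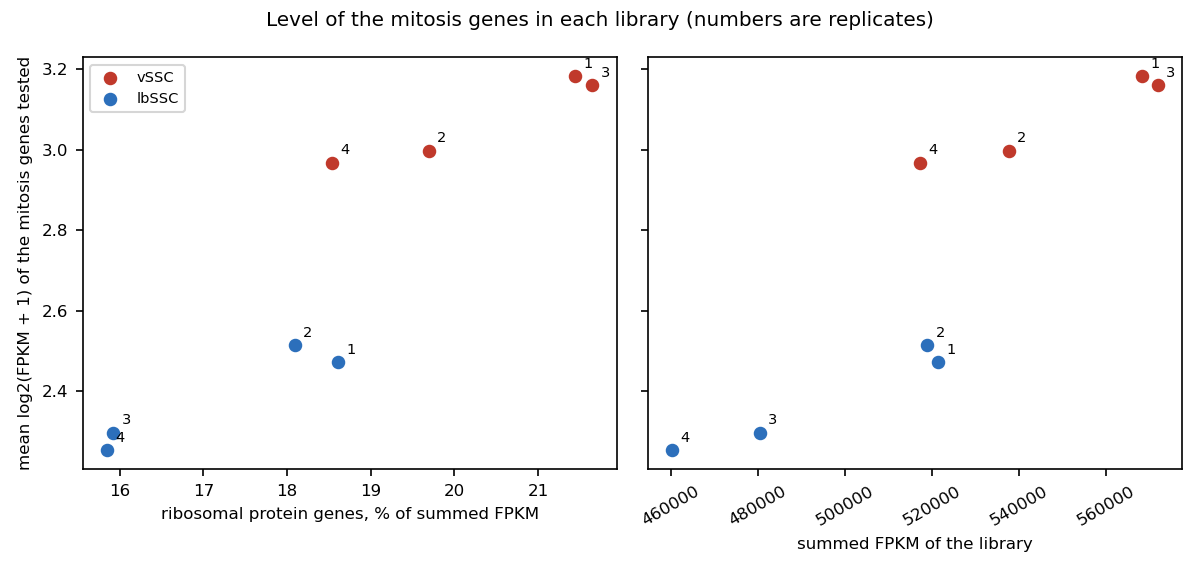
Both panels plot the mean log2(FPKM + 1) of the 35 mitosis genes tested in each library, against the share of ribosomal protein genes in the summed FPKM (left) and against that sum (right), with replicate numbers beside the points. All vSSC libraries lie above all lbSSC libraries. The vSSC replicate 4 (female) and lbSSC replicate 1 (male) have nearly the same position on the horizontal axis, a pair picked after its values were seen.

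No mitosis gene passed the test for sex. Of 35 genes none passed in limma for the difference between males and females, fitted beside site (6 at an unadjusted p under 0.05), where 0.0466% of all genes passed and 8.31% had such a p. The interaction of site and sex passed in none of the 35 genes (none at an unadjusted p under 0.05), and in none of all genes (0%), where 3.77% had an unadjusted p under 0.05. The median site difference of the 35 genes was 0.58 among the male libraries and 0.82 among the female libraries, with 34 of 35 above 0 in each sex, and over all genes it was 0.06 and 0.11.

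Among other genes of cell division, several lists held genes that rose. Over all genes tested 14.3% rose and 9.17% fell, with a median difference of 0.08. Of 27 further kinetochore and checkpoint genes tested 12 rose and none fell (median 0.45), led by Cenpw, a histone-fold protein of the inner kinetochore, at 9.84 ± 1.68 against 3.03 ± 0.484 FPKM (1.42 ± 0.15, adjusted p = 8.75e-05). Mad2l1, the checkpoint protein Mad2, rose by 0.89 ± 0.14 (adjusted p = 0.000922). Of 36 DNA replication and G1/S genes tested 20 rose and 1 fell (median 0.48), with the replication clamp Pcna at 82.1 ± 10.2 against 45.3 ± 9.68 FPKM (0.86 ± 0.15, adjusted p = 0.00231), a difference of 0.69 ± 0.12 for the helicase subunit Mcm6 and of 0.79 ± 0.14 for the ribonucleotide reductase subunit Rrm1. The gene that fell was the transcription factor E2f2, at 3.78 ± 1.40 against 7.47 ± 1.77 FPKM (-0.85 ± 0.22, adjusted p = 0.0196). Ska3 and Mcm10, which rose in these lists, were under 1 FPKM in every lbSSC library and met the filter only through vSSC. On the log2(FPKM + 1) scale the mean of the mitosis genes minus that of the replication genes was between -0.199 and -0.0428 in vSSC and between -0.410 and -0.239 in lbSSC, with no overlap.

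Lists of regulators are read against the 14.3% of all genes tested that rose. Of 17 APC/C genes 4 rose and none fell (median 0.21), among them Ube2s, the enzyme that extends ubiquitin chains on APC/C targets, at 63.1 ± 5.69 against 37.7 ± 7.72 FPKM (0.75 ± 0.14, adjusted p = 0.00373), with Anapc4 (0.85 ± 0.20) and Anapc15 (0.66 ± 0.19). In the condensin, cohesin and separase list 1 of 15 rose (median 0.15), Cdca5, the cohesin protector sororin (0.82 ± 0.20, adjusted p = 0.0148). Of 11 genes that control entry 2 rose, the phosphatase inhibitor gene Arpp19 (0.47 ± 0.14, adjusted p = 0.0367) and the phosphatase Cdc25c (0.60 ± 0.19, adjusted p = 0.0389). Cdc25c was under 1 FPKM in every lbSSC library and met the filter only through vSSC. Of 14 transcription factors of G2 and M genes 2 rose, the E2F partner Tfdp1 (0.55 ± 0.12, adjusted p = 0.00838) and the MuvB subunit Lin54 (0.48 ± 0.16, adjusted p = 0.0466). Foxm1, a main activator of mitosis genes, named after its values were seen, was at 3.19, 2.99, 0.791 and 2.92 FPKM in vSSC and 0.992, 1.31, 1.62 and 1.54 FPKM in lbSSC and did not pass (adjusted p = 0.187), with vSSC replicate 3 the lowest of all 8 although the mitosis genes were high there. The counts in the entry, transcription factor and condensin lists are near or under the share over all genes. Against the 9.17% of all genes tested that fell, 1 of 5 CDK inhibitors tested fell and none rose. It was Cdkn1a, which encodes p21, at 66.2, 79.9, 87.1 and 74.3 FPKM in vSSC and 126, 111, 98.8 and 99.4 FPKM in lbSSC (-0.50 ± 0.12, adjusted p = 0.0129), with no overlap.

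Some markers of blood cells also differed between the sites. Over all genes tested 14.3% were higher in vSSC and 9.17% lower. Neutrophil genes summed to 323, 423, 457 and 297 FPKM in vSSC replicates 1 to 4 and 119.7, 130.2, 29.2 and 57.9 FPKM in lbSSC replicates 1 to 4, and 6 of 8 tested were higher in vSSC, with S100a8 the most abundant. Mpo, the myeloperoxidase gene of neutrophil precursors, named after its values were seen, was at 1.33, 4.59, 0 and 1.02 FPKM in vSSC. It was at 1.42, 2.94, 1.44 and 0.166 FPKM in lbSSC, with overlapping sites. Mpo and Prtn3 (0.35 ± 0.47) were tested and not called. Among the 6 higher in vSSC were Ngp (2.43 ± 0.32), Camp (2.34 ± 0.30) and Ltf (1.15 ± 0.34). B lymphoid genes summed to between 13.8 and 18.3 FPKM in vSSC and between 1.39 and 12.4 in lbSSC, and all 3 tested were higher in vSSC, with Cd79a the most abundant. Erythroid genes went the other way, with 3 of 9 lower and none higher in vSSC and sums between 3989.7 and 5585 FPKM in vSSC and between 4426 and 9028 in lbSSC. Macrophage and osteoclast genes summed to between 68.6 and 104 FPKM in vSSC and between 115 and 138 in lbSSC, with Ctsk highest, and of 4 tested 3 were lower and 1 higher in vSSC. Megakaryocyte genes summed to between 15.3 and 19.4 and between 10.4 and 22.6 FPKM, of which Gp1bb held most. Ptprc, given above, was also higher in each vSSC library than in each lbSSC library. The part of these cells in the level of the mitosis genes was not tested. Skeletal muscle genes were absent, with Myod1, Myf5 and Myh3 listed at 0 in all libraries and no gene of the list at 1 FPKM.

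The chondrocyte and osteoblast lists are read against the 14.3% of all genes tested that were higher in vSSC and the 9.17% that were lower. Of 11 chondrocyte genes 3 were higher in vSSC and 1 lower, with sums between 16686 and 26500.3 FPKM in vSSC and between 18486 and 29242 in lbSSC, so the sites overlapped. Of 9 osteoblast genes 1 was higher and 4 lower, and their sums lay between 2895 and 3256 FPKM in vSSC and between 8893 and 12840.0 in lbSSC, with Col1a2 the most abundant. The counts of 1 chondrocyte gene lower and 1 osteoblast gene higher are near the shares over all genes.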

How the data were processed

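The deposited table holds FPKM per protein-coding gene, made by the authors with bcl2fastq 2.19, STAR 2.5.2 and Cufflinks 2.1.1 on GRCm38, per the submitters' processing notes. Other settings are not given in sources used here. Per the labels' protocols, the kits were SMART-Seq v4 for cDNA and Nextera XT for libraries, and these do not mark the strand. FPKM divides by the library's total, so abundant genes lower all others.

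The log2(FPKM + 1) of the 10729 genes that reached FPKM 1 in 4 or more of the 8 libraries was fitted in R 4.3.3 with limma 3.58.1, using its moderated variance with a trend. Site was fitted alone, sex was fitted beside site, and a further fit held their interaction. Alternatives changed the pseudocount, filter, scaling, variance model, covariates and libraries used. No pair of libraries was identical. The procedure was tested on simulated data. The 39 genes, the role groups and other lists, the motifs and the rule for printed values (in each role group the 2 largest and the smallest difference, plus Plk1, Aurka, Cdk1 and Mki67) were chosen with earlier results of these data known. Where a list named a gene without a row, it was not analysed here. A planned search of protein sequences was not run. The result of 1 marker list is not reported here. Table starts were shifted by 1, after which 34 of 39 gene positions equalled GENCODE M21.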

Additional observations from a re-analysis of the deposited data

Results flagged for a closer look

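In 4 cases 1 library of a site stood far from the other 3, by the gap to its nearest neighbour over the range of the group (Dixon's test). Over 39 genes and both sites chance flags about 1 in 20 groups. Ccnb1 was at 12.2 FPKM in vSSC replicate 1, where the other vSSC libraries lay between 6.57 and 6.92. Cdc20 was at 16.6 FPKM in vSSC replicate 3, against 13.5 to 13.9 in the others. Bub1 was at 0.657 FPKM in lbSSC replicate 4, against 1.21 to 1.29, and Smc4 at 5.30 FPKM in lbSSC replicate 2, against 3.97 to 4.19.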

How the results depend on the processing

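The number of mitosis genes that rose was 25 as reported and none fell under any of the 23 alternatives. It was 16 with the filter at an FPKM of 5, which leaves 18 of the genes to test, where 20.2% of all genes rose. It was 13 when vSSC replicates 1 and 3 were both left out, where 4.69% of all genes rose. It was 3 in the fit that held the ribosomal protein share, where 2.15% rose. Leaving out 1 library at a time it ran from 19 to 25, with a median difference from 0.69 to 0.82. The share of all genes that rose also changed in these fits. It ran from 7.82% without lbSSC replicate 4, where 19 mitosis genes rose, to 17.5% without vSSC replicate 4, where 25 rose. The median, 0.74 as reported, was 0.87 and 0.90 with pseudocounts of 0.1 and 0.01, 0.61 after rescaling to one sum, 0.61 when vSSC replicates 1 and 3 were both left out, and 0.45 beside the ribosomal protein share. With the replicate number as a block 26 rose, Ttk among them (adjusted p = 0.0465), where 18.8% of all genes rose. Correlations of the libraries' deviations from the site means ran from -0.09 to 0.44 for the same number and from -0.36 to 0.21 for different numbers. The library that correlated best was not always the one of the same number. With so few libraries these values cannot decide whether equal numbers mark paired libraries. The sex comparison could not be fitted with the block, as each number has 1 sex. No mitosis gene was called for sex or for the interaction under any alternative fitted. Single genes kept their direction and side of the threshold in 715 cases, lost their call in 59 and gained one in 10. In 4 the direction turned, for Smc4 without vSSC replicate 1 (-0.14), when vSSC replicates 1 and 3 were both left out (-0.014) and beside the ribosomal protein share (-0.12), and for Ube2c beside that share (-0.38). With 1 library left out, Smc4 ran from -0.14 to 0.32. The cause of these changes was not tested.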
